A study of Homo sapiens with 6 samples.

Results

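Fibroblast growth factors (FGFs) and their receptors were followed in HCT116 colorectal cancer cells that carried either mutant or wild-type β-catenin. The members described here are 10 genes, chosen as the rows of the gene table that bear their names, out of 18236 genes in all. They are the 6 ligand genes FGF9, FGF18, FGF2, FGF8, FGF1 and FGF23 and the 4 receptor genes FGFR1, FGFR2, FGFR3 and FGFR4. The mutant cells (HCT116-CTNNB1 -/Δ45) had the wild-type β-catenin allele disrupted and kept the one with the Δ45 mutation, a deletion that stabilizes the protein. The wild-type cells (HCT116-CTNNB1 WT/-) had the mutant allele disrupted and kept the intact one. Both lines were grown in the same serum-containing medium with no further treatment named, and each line was sequenced in 3 replicates. The sources used here do not say whether replicates were separate cultures or whether a line is 1 clone, so the spread behind the p-values is that between samples and may be technical.

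FGFs are secreted proteins that bind receptor tyrosine kinases together with heparan sulfate chains of the cell surface, and the activated receptor signals through the adaptor FRS2 to RAS, ERK and PI3 kinase. Most act on nearby cells, whereas FGF19, FGF21 and FGF23 circulate as hormones and need a Klotho protein beside the receptor. Sprouty proteins and DUSP phosphatases dampen the signal as feedback inhibitors. FGF9 and FGF18 are known as genes that β-catenin and TCF can activate in epithelial tumours, FGF18 among them in the colon.

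The samples held 33.5 to 57.9 M reads in genes in mutant and 21.8 to 41.4 M in wild-type cells, and values are given as normalized counts, that is, reads per gene scaled by a size factor for each sample. In bulk RNA, fewer cells with a transcript and less of it per cell cannot be told apart. The samples numbered 1 stood apart from the others of their line. The log2 difference over all genes tested had an SD of 0.51 between mutant replicate 1 and wild-type replicate 1, whereas it was 0.84 and 0.85 between mutant replicate 1 and the other mutant replicates. AXIN2, a direct target of β-catenin, had 991, 1039 and 1011 normalized counts in the mutant replicates, against 184, 133 and 142 in the wild-type replicates, so that mutant replicate 1 lay with its own line in this gene. CTNNB1 itself had 18375 ± 469 normalized counts in mutant and 14683 ± 3392 in wild-type cells (SD, n = 3 each), a value that does not tell the alleles apart. Of 7 colorectal epithelial markers limma called EPCAM and CDH1 lower in mutant cells and none higher. Another 2 of the 7 leaned higher in mutant cells without a call by limma. These were CDX2 (log2 fold change 1.06, adjusted p = 0.0681) and KRT18 (0.49, adjusted p = 0.147). The summed level of the 7 was 45258 to 50322 normalized counts in mutant and 57958 to 60904 in wild-type samples. Of 7 fibroblast, 5 endothelial and 6 leukocyte markers only 3, 2 and 2 averaged enough counts to be tested. In each list 1 was called lower (COL3A1, VWF and ITGAM) and none higher. Limma called 17.3% of all genes tested higher and 10.0% lower. The summed levels of the full lists were 1980 to 4478, 69.0 to 89.8 and 66.9 to 78.4 normalized counts in mutant samples. In wild-type samples they were 3582 to 4708, 120 to 153 and 74.3 to 98.2. Nearly all of the fibroblast sum was COL1A1, and the defining markers LUM, PECAM1 and PTPRC had at most 4.91 normalized counts in any sample. The part of these markers in the results was not tested.

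The sequences before the start sites of FGF18, FGF2 and FGF23 are shown because these are the ligands with a single RefSeq start and cover both directions of change. RefSeq windows of 7 of the 10 members, 15 windows in all, were used. The 250 bases before the start were searched on both strands for CTTTGA and CTTTGT, the core letters to which TCF proteins bind. The FGF18 window (chr5:171419397-171419646, + strand, GRCh38.p14) held CTTTGA, set in capitals, 174 to 169 bases before the start. The FGF2 window (chr4:122826581-122826830, + strand) and the FGF23 window (chr12:4379713-4379962, - strand) held neither word and are in lower case throughout.
FGF18: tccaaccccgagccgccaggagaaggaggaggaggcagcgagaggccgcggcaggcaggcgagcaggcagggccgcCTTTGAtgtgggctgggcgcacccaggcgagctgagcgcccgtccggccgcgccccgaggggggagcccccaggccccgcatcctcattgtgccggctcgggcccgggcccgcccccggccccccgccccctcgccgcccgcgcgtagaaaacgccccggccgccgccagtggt
FGF2: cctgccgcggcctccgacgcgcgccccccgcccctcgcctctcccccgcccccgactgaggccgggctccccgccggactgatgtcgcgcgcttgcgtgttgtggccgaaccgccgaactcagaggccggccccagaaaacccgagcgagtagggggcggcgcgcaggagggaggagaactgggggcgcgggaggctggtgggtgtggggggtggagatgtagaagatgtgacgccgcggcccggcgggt
FGF23: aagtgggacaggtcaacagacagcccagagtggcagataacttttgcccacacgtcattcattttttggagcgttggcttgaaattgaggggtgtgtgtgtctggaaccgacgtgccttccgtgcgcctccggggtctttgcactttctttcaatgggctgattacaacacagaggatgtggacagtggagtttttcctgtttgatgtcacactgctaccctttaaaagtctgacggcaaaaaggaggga

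G and C made up 78.8% of the FGF18 window and 75.2% of the FGF2 window, against 49.6% of the FGF23 window and 44.8% to 60.8% of the 4 windows of FGF1. The median over 35116 RefSeq windows of the same length was 58.0%. The windows of the ligands FGF18 and FGF2, which were higher in mutant cells, were thus richer in G and C than those of FGF23 and FGF1. This is a description of 4 genes with no test. Among the receptors, FGFR4, lower in every mutant sample, had windows of 57.2% and 79.6%. Those of FGFR2 had 42.8% to 78.4%, and that of FGFR3 86.8%. CTTTGT was found in 2 of the 5 windows of FGFR2 and in 1 of the 2 windows of FGFR4, and neither word was found in the windows of FGF1 and FGFR3. Together, 4 of the 15 member windows (26.7%) held one of these words, against 22.8% of all windows, where CTTTGA stood in 11.2% and CTTTGT in 13.7%. No window of FGF9, FGF8 or FGFR1 was among these 15, so that the 26.7% does not cover these members. The match is a description of letters and not of binding.

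Of the ligands, FGF9, FGF18 and FGF2 were higher in mutant cells. FGF9 rose most, about 12.6-fold on the log2 scale used here, FGF2 about 3.98-fold and FGF18 about 2.60-fold. A call by limma means an adjusted p under 0.05 after Benjamini-Hochberg adjustment over the 14539 genes that averaged 10 or more normalized counts. Log2 fold changes were taken as mutant against wild-type, so that a positive value means higher in mutant cells, after adding 1 to each value.

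FGF9, a ligand of the developing gonad, lung and gut wall, spans chr13:22245212-22278637 on the + strand (hg19). It had 316, 289 and 322 normalized counts in the mutant replicates, against 50.3, 15.6 and 16.7 in the wild-type replicates. All mutant samples lay together and far above every wild-type sample, and wild-type replicate 1 was the highest of its line. Limma gave a log2 fold change of 3.65 ± 0.47 (standard error, n = 3 each, adjusted p = 0.0160), and edgeR gave 3.30 (adjusted p = 0.0182). The wild-type values rest on 41, 18 and 10 reads.

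FGF18, of the same subfamily as FGF8 and known for its role in cartilage, bone and lung, spans chr5:170846651-170884630 on the + strand. It had 273, 314 and 322 normalized counts in the mutant replicates, against 139, 87.3 and 128 in the wild-type replicates. The lines did not overlap, and the lowest mutant sample was replicate 1. The log2 fold change was 1.38 ± 0.27 (limma, adjusted p = 0.0396), and edgeR gave 1.14 (adjusted p = 0.0385).

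FGF2, the basic FGF that leaves cells without a signal peptide, spans chr4:123747837-123819391 on the + strand. It had 309, 1296 and 1154 normalized counts in the mutant replicates, against 328, 166 and 133 in the wild-type replicates. The lines overlapped in the samples numbered 1, since mutant replicate 1 lay just below wild-type replicate 1, while the other mutant samples stood far above all others. Its log2 fold change was 1.99 ± 0.60 (limma, adjusted p = 0.0474), and edgeR gave 1.90 (adjusted p = 0.0434). Of the 6801 exon bases of FGF2, 804 (11.8%) are shared with NUDT6 on the opposite strand, and since the strand setting of the counting is not given in the sources used here, reads of these genes cannot be told apart in that stretch. NUDT6 had 86.0, 131 and 151 normalized counts in mutant and 94.5, 33.7 and 46.6 in wild-type replicates, and its log2 fold change of 1.15 did not pass limma (adjusted p = 0.0790). NUDT6 averaged 122 normalized counts in mutant and 58.3 in wild-type cells, where FGF2 averaged 919 in mutant and 209 in wild-type cells. The value of FGF2 is therefore uncertain in part, and the part of NUDT6 reads in it was not tested.

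**Figure D1:**
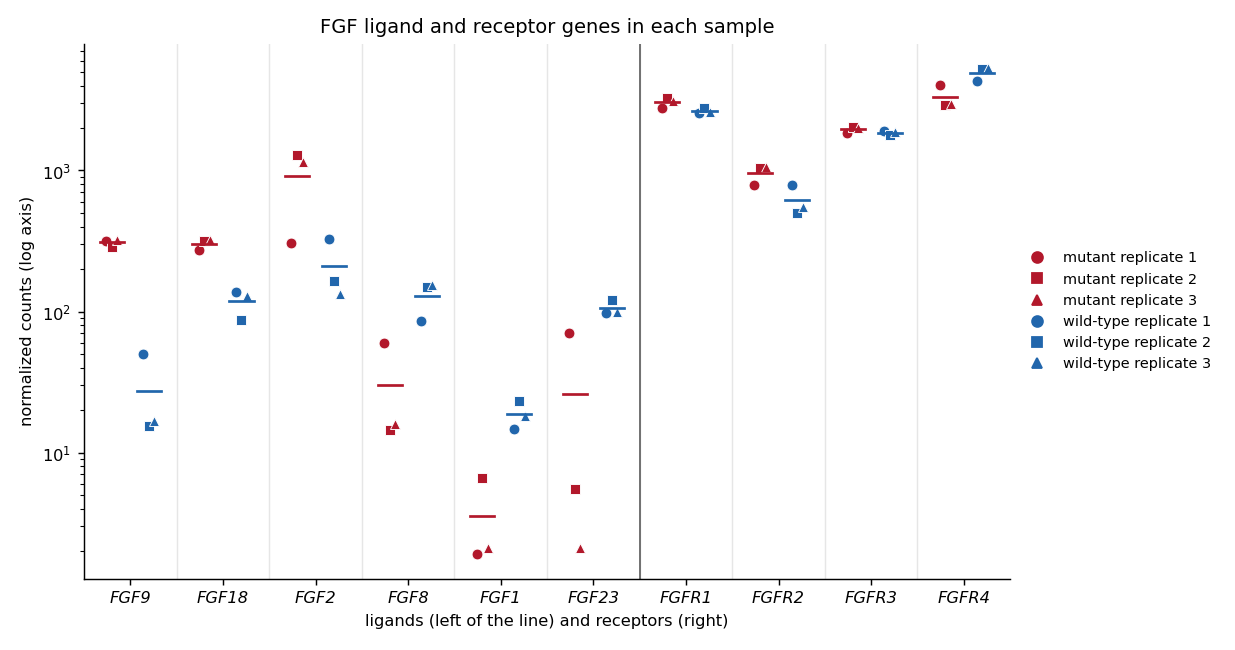
Normalized counts of the 10 members (log axis) in each sample, mutant left of wild-type for each gene, with the symbol giving the replicate and the horizontal line the mean of 3 replicates. FGF9 and FGF18 lie higher and FGF1 lower in all mutant samples, and in FGF2, FGF8 and FGF23 mutant replicate 1 (circle) lies nearest to the wild-type samples.

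The ligands FGF8 and FGF1 were lower in mutant cells, about 5.05-fold and 4.75-fold, and FGF23 was lower in every mutant sample without passing limma. All of them were low genes in these cells. Of these, FGF8 had the most reads, up to 174 in a sample.

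FGF8, an organizer of the midbrain, limb and face in embryos and a ligand of the same subfamily as FGF18, spans chr10:103529866-103540128 on the - strand. It had 59.4, 14.4 and 15.9 normalized counts in the mutant replicates, against 85.9, 150 and 153 in the wild-type replicates. The lines did not overlap, but mutant replicate 1 was nearer to wild-type replicate 1 than to its own line. The log2 fold change was -2.34 ± 0.58 (limma, adjusted p = 0.0413), and edgeR gave -2.28 (adjusted p = 0.0463).

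FGF1, the acidic FGF, which binds all of the signalling receptors, spans chr5:141971743-142077635 on the - strand. It had 1.90, 6.64 and 2.12 normalized counts in the mutant replicates, against 14.7, 23.3 and 18.3 in the wild-type replicates, values that come from 3, 6 and 2 reads in mutant and 12, 27 and 11 reads in wild-type samples. Every mutant sample lay below every wild-type sample, and replicate 1 lay with its line in both. Its log2 fold change was -2.25 ± 0.50 (limma, adjusted p = 0.0404), while edgeR on the reads gave -2.70 (adjusted p = 0.0370), the pseudocount of 1 being large beside such low values.

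FGF23, a hormone of bone that lowers blood phosphate, spans chr12:4477393-4488878 on the - strand. It had 70.8, 5.53 and 2.12 normalized counts in the mutant replicates, against 98.2, 121 and 99.9 in the wild-type replicates. Mutant replicates 2 and 3 were almost without reads (5 and 2), while mutant replicate 1 had 112. Its log2 fold change of -3.23 ± 1.05 did not pass limma (adjusted p = 0.0546), nor did the edgeR value of -2.11 (adjusted p = 0.138) or the DESeq2 value of -2.17 (adjusted p = 0.0637). With the values rescaled by TMM factors it passed limma (adjusted p = 0.0479), as it did without mutant replicate 1 (adjusted p = 0.0040).

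The receptor genes had smaller fold changes than the ligands, and none was called by limma. FGFR4 was the most abundant receptor in counts and lay below every wild-type sample in all mutant samples, FGFR2 lay above all wild-type samples in mutant replicates 2 and 3, and FGFR1 and FGFR3 had the smallest fold changes.

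FGFR4, the receptor through which FGF19 acts with β-Klotho, spans chr5:176513906-176525145 on the + strand. It had 4057, 2911 and 2982 normalized counts in the mutant replicates, against 4316, 5200 and 5299 in the wild-type replicates. Every mutant sample lay below every wild-type sample, with mutant replicate 1 and wild-type replicate 1 next to each other. The log2 fold change of -0.59 ± 0.18 missed the threshold of limma (adjusted p = 0.0503), while edgeR gave -0.81 (adjusted p = 0.0499) and DESeq2 -0.82 (adjusted p = 0.0142). It also passed limma with values rescaled by TMM factors (-0.82, adjusted p = 0.0422), with the filter at 50 (adjusted p = 0.0496) and with a pseudocount of 5 (adjusted p = 0.0489), so that it stood at the edge of the threshold.

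FGFR2, whose exon choice gives an epithelial and a mesenchymal form, spans chr10:123237846-123357972 on the - strand, and gene counts do not tell these forms apart. It had 790, 1033 and 1055 normalized counts in the mutant replicates, against 792, 503 and 553 in the wild-type replicates. The samples numbered 1 were nearly equal, and the other mutant samples lay above all wild-type samples. A log2 fold change of 0.66 ± 0.24 did not pass limma (adjusted p = 0.0714), and edgeR gave 0.42 (adjusted p = 0.117).

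FGFR1, the main receptor of mesenchymal cells, spans chr8:38257733-38326352 on the - strand. It had 2769, 3282 and 3131 normalized counts in the mutant replicates, against 2569, 2757 and 2605 in the wild-type replicates. The lines did not overlap, but the lowest mutant sample and the highest wild-type sample were nearly equal. A log2 fold change of 0.21 ± 0.14 did not pass limma (adjusted p = 0.259) and its sign turned with the scaling, to -0.03 by edgeR and -0.04 by DESeq2. Of its 17201 exon bases, 387 (2.25%) are shared with a lncRNA on the opposite strand that has no row in the table, and 138 with LETM2 on the same opposite strand.

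FGFR3, which restrains bone growth and is expressed in gut epithelium, spans chr4:1795020-1810599 on the + strand. It had 1857, 2039 and 2003 normalized counts in the mutant replicates, against 1904, 1793 and 1865 in the wild-type replicates. The lines overlapped and the SD was 96.2 in mutant and 56.4 in wild-type cells. The log2 fold change of 0.08 ± 0.14 did not pass limma (adjusted p = 0.643), its 95% confidence interval ran from -0.25 to 0.41, and edgeR gave -0.15 (adjusted p = 0.413).

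**Figure D2:**
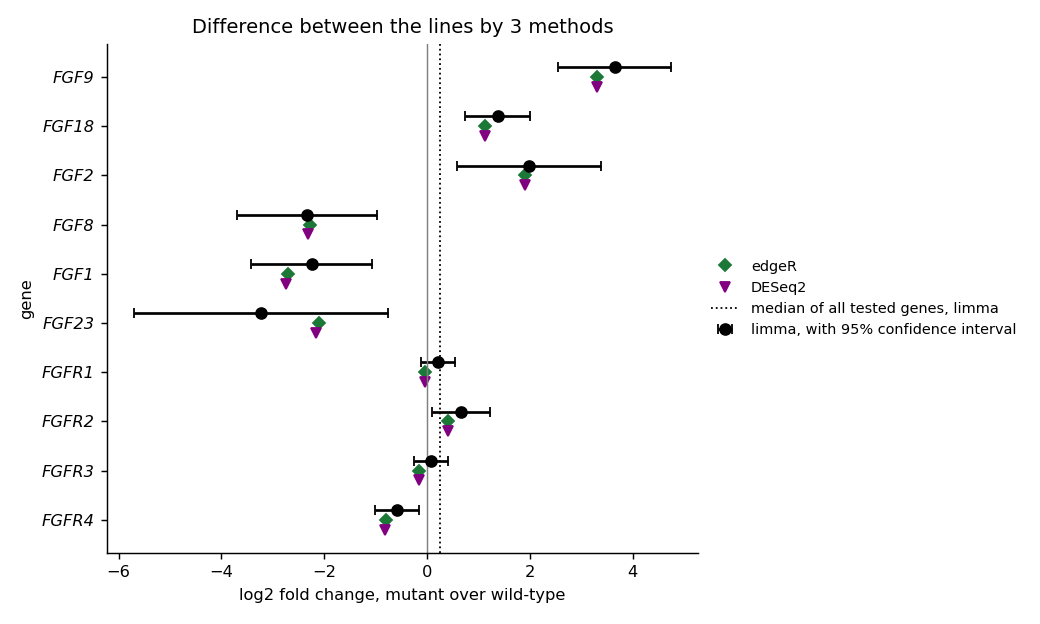
Log2 fold change of each member, mutant over wild-type, by limma with its 95% confidence interval (black), edgeR (green) and DESeq2 (purple), with the dotted line at the limma median of all genes tested (0.24). The 3 methods differ most for FGF23, and the values of FGFR1 and FGFR3 lie on both sides of 0.

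Over the 10 members limma called 3 higher and 2 lower in mutant cells, where it called 17.3% of all genes tested higher and 10.0% lower. By edgeR 3 were higher and 3 lower, against 12.3% and 11.2% of all genes, and by DESeq2 3 were higher and 3 lower, against 21.7% and 20.6%. The further gene called lower by edgeR and DESeq2 was FGFR4. In 3 members (FGF9, FGF18 and FGFR1) every mutant sample lay above every wild-type sample, against 26.6% of all genes, and in 4 (FGF8, FGF1, FGF23 and FGFR4) every mutant sample lay below, against 19.1%. For these 7 members the two-sided exact permutation test gave p = 0.1, the smallest p that 3 against 3 samples allow, and for FGF2, FGFR2 and FGFR3 it gave 0.2, 0.2 and 0.3.

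The median log2 fold change of the members was 0.15 by limma and -0.09 by edgeR, beside 0.24 and 0.01 over all genes tested, a shift of the whole table that comes with the scaling of the deposited values. Relative to the median of all genes, the limma values were 3.40 for FGF9, 1.75 for FGF2 and 1.13 for FGF18 among the higher ligands, and -3.48 for FGF23, -2.58 for FGF8 and -2.49 for FGF1 among the lower ones. On the same footing the receptors were at 0.41 (FGFR2), -0.04 (FGFR1), -0.16 (FGFR3) and -0.83 (FGFR4). Each ligand was further from the median than each receptor.

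The size of the difference between the lines varied with the replicate number. Between the samples numbered 1, 2 and 3 the log2 difference of FGF9 was 2.63, 4.13 and 4.19, that of FGF18 was 0.97, 1.84 and 1.32, and that of FGF1 was -2.44, -1.67 and -2.63. These ligands kept their direction in every number, but the differences of FGF9 and FGF18 were smallest in the samples numbered 1. For FGF2 the differences were -0.09, 2.96 and 3.10, for FGF8 -0.52, -3.30 and -3.19, and for FGF23 -0.47, -4.22 and -5.01. For these ligands nearly all of the difference lay in the samples numbered 2 and 3. The receptors FGFR2 (-0.0034, 1.04 and 0.93) and FGFR4 (-0.09, -0.84 and -0.83) had the same form at a smaller size, and FGFR1 and FGFR3 stayed between -0.04 and 0.27 in all numbers. The labels do not tie samples of the lines to each other by number.

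**Figure D3:**
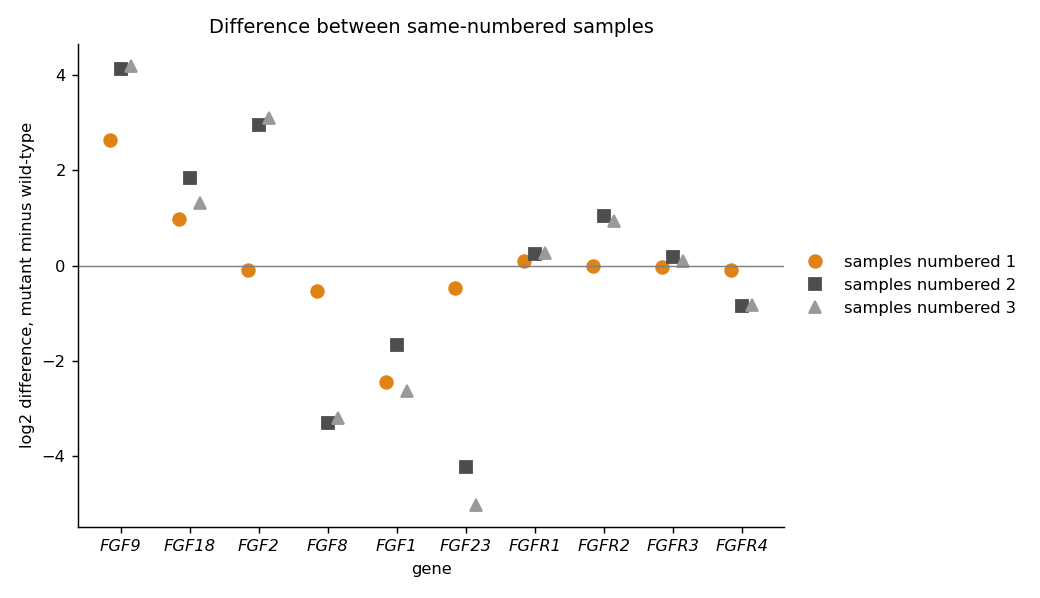
Log2 difference, mutant minus wild-type, between the samples with the same replicate number for each member, with orange circles for the samples numbered 1. In FGF2, FGF8, FGF23, FGFR2 and FGFR4 the circle lies near 0 and the other symbols far from it, whereas in FGF9, FGF18 and FGF1 all symbols lie on the same side.

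Mutant replicate 1 differed from the mean log2 value of mutant replicates 2 and 3 by 3.99 for FGF23, 1.91 for FGF8, 0.46 for FGFR4, -0.40 for FGFR2 and -1.98 for FGF2, but by 0.05 for FGF9 and -0.22 for FGF18. Wild-type replicate 1 differed from the other wild-type replicates by 1.59 for FGF9 and 1.14 for FGF2. Without mutant replicate 1 limma called 4 members higher and 4 lower, FGFR2, FGF23 and FGFR4 being added. Of all 14539 genes tested it then called 5181 higher and 3080 lower. Without wild-type replicate 1 it called 4 members higher and 3 lower, and 4959 and 2225 of all genes. With mutant replicate 2 or 3 or wild-type replicate 2 or 3 left out, it called none, with 6 members at an unadjusted p under 0.05 in each case, and over the whole table it called 23, 20, 0 and 0 genes. In these fits edgeR also called none, while DESeq2 called FGF9, FGF18, FGF2 and FGF8 in each and gave FGF1 no adjusted p in 3 of them. Over the whole table edgeR then called 30, 30, 0 and 0 genes, and DESeq2 2019, 2116, 1850 and 2068. With replicate 1 of both lines left out limma called 5 members higher and 4 lower, all but FGFR3, but then 53.1% of all genes were called higher and 29.1% lower.

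Levels were compared between genes per kb of exon (the union of the annotated exons). In mutant cells the order was FGFR4 (690 ± 134 normalized counts per kb), FGFR3 (406 ± 19.9), FGFR1 (178 ± 15.3), FGF18 (152 ± 13.1), FGF2 (135 ± 78.5), FGF9 (63.7 ± 3.63), FGFR2 (51.0 ± 7.83), FGF8 (20.7 ± 17.7), FGF23 (5.55 ± 8.22) and FGF1 (0.713 ± 0.537, SD, n = 3 each). The neighbours FGF18 and FGF2, FGF2 and FGF9, FGF8 and FGF23, and FGF23 and FGF1 overlapped between samples. In wild-type cells it was FGFR4 (1027 ± 113), FGFR3 (382 ± 11.6), FGFR1 (154 ± 5.80), FGF8 (90.0 ± 26.4), FGF18 (59.1 ± 13.6), FGFR2 (32.7 ± 8.21), FGF2 (30.7 ± 15.3), FGF23 (22.6 ± 2.69), FGF9 (5.67 ± 4.08) and FGF1 (3.77 ± 0.867). Here FGF8 and FGF18, FGFR2 and FGF2, FGF2 and FGF23, and FGF9 and FGF1 overlapped. FGF8 thus stood at the head of these ligands in wild-type and behind FGF18, FGF2 and FGF9 in mutant cells. The place of FGFR2 rests on the length used. Per kb of its canonical transcript it had 207.5 normalized counts in mutant and 133 in wild-type cells, which put its mean above those of all 6 ligands in both lines.

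Among the receptors FGFR4 made up 51.8% ± 6.28 of the summed receptor level per kb in mutant and 64.2% ± 3.16 in wild-type cells. FGFR3 made up 30.8% ± 3.47 in mutant and 24.1% ± 2.14 in wild-type cells, FGFR1 13.5% ± 1.99 and 9.65% ± 0.514, and FGFR2 3.89% ± 0.826 and 2.08% ± 0.664 (SD, n = 3 each). In the samples numbered 1 these shares were alike, with FGFR4 at 59.0% in mutant and 60.6% in wild-type cells. With the length of the canonical transcript in place of the exon union, FGFR4 was again the highest at 46.9% in mutant and 60.7% in wild-type cells, but FGFR1 (23.7% and 17.7%) came before FGFR3 (20.2% and 16.5%) and FGFR2 stood at 9.18% and 5.13%. The exon union of FGFR1 is 17.2 kb long and its canonical transcript 5.70 kb, and those of FGFR2 are 18.8 and 4.62 kb.

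**Figure D4:**
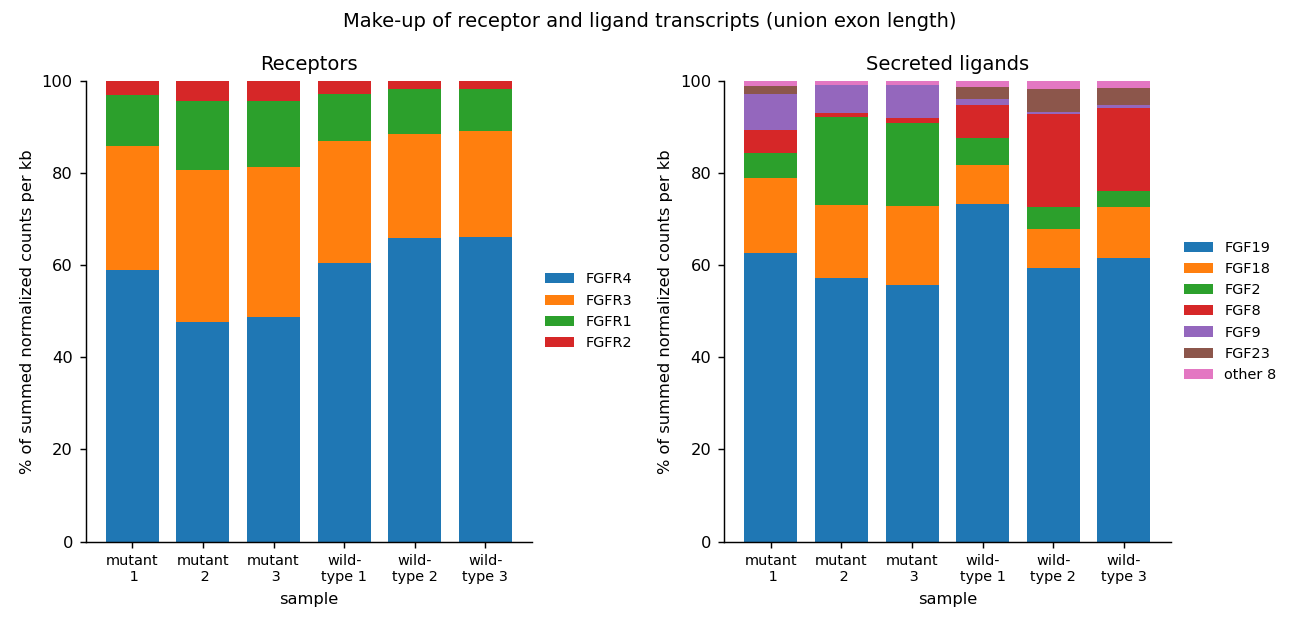
Share (%) of each gene in the summed normalized counts per kb of exon, for the 4 receptors (left) and for 14 secreted ligands (right), in each mutant and wild-type sample. FGFR4 and FGF19 take the largest part in every sample. FGF9 and FGF18 take more in every mutant than in every wild-type sample. The share of FGF8 is lowest and that of FGF2 highest in mutant replicates 2 and 3.

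Over 14 secreted ligands in the table, FGF19, a gut hormone that acts on the liver and was not among the 10 members, took 58.6% ± 3.56 of the summed level per kb in mutant and 64.8% ± 7.49 in wild-type cells. FGF18 took 16.4% ± 0.667 in mutant and 9.30% ± 1.48 in wild-type cells, and FGF9 6.94% ± 0.929 and 0.824% ± 0.379. FGF2 took 5.44%, 19.1% and 18.0% in the mutant replicates, against 5.86%, 4.73% and 3.36% in the wild-type replicates. FGF8 took 4.94%, 0.998% and 1.17% in the mutant replicates, against 7.24%, 20.2% and 18.2% in the wild-type replicates. The ligands FGF2 and FGF8 thus changed places between the lines in replicates 2 and 3, and the samples numbered 1 of both lines had nearly the same make-up in them.

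The likeness of profiles was described by Pearson's r of log2 values over the 6 samples, which all genes share with their size factors, so that high values are common. FGF8 and FGFR4 followed each other most closely among the members (r = 0.997), FGF2 ran against both (r = -0.989 and -0.994), and FGF9 and FGF18 followed each other at r = 0.968. Over all genes the nearest to FGF9 was DUSP4, an ERK phosphatase (r = 0.999), then VPS16 and NFE2L1 (0.998 each). The nearest to FGF18 were NEIL2 (0.998), HNRNPUL2 and GTF2IRD1 (0.996 each). Among the nearest to FGF8 were EDC3 and ZDHHC8P1 (0.9996 and 0.9995).

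For FGF2 the nearest genes were RRP1B, LOC100288181 and ATP11A (0.9996, 0.9995 and 0.9993), for FGF1 PLEKHM1, CD79A and NBEAL2 (0.994, 0.987 and 0.985), and for FGF23 LOC553103, LOC100129924 and IL12RB2 (0.999 each). FGFR4 was nearest to FDFT1, an enzyme of cholesterol synthesis, B4GALT3 and SNORD36A (0.9997, 0.9995 and 0.9995). FGFR2 was nearest to ZNF620, EFNA4 and ANO5 (0.999 each), FGFR1 to LINC00282, FAM13B and TUBA8 (0.997, 0.997 and 0.994), and FGFR3 to LEKR1, LRTOMT and LRFN1 (0.996, 0.996 and 0.993). FGF1 had the weakest nearest genes of all members, with 2 to 27 reads per sample.

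Genes next to the members on the chromosome were compared as a description. Over the 10 tested genes on each side, the median log2 fold change by limma lay between -0.45 (FGFR4) and 0.63 (FGF9). The counts of called neighbours, of 20 for each member, stand beside 17.3% called higher and 10.0% lower over all genes tested. Around FGF9, between 21.3 and 25.7 Mb, limma called 3 of 20 neighbours higher and 0 lower, and around FGF2 also 3 higher and 0 lower. Around FGF8, which was lower in mutant cells, it called 5 neighbours higher and 0 lower, and around FGF23 4 higher and 3 lower. Around FGF18 it called 4 higher and 1 lower, and around FGF1 1 higher and 1 lower. Around the receptors the counts were 6 higher and 1 lower for FGFR1, 2 and 3 for FGFR2, 2 and 0 for FGFR3, and 2 and 2 for FGFR4. The change of each called ligand was larger than the median of its neighbours, but a call already requires a large change, so that this tells nothing about the region. The uncalled FGFR4 had -0.59 beside a neighbour median of -0.45, and FGFR2 0.66 beside 0.06. FGFR1 had 0.21 beside 0.32 and FGFR3 0.08 beside 0.26. A part of the region in these values was not tested.

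Of 101 further genes of the pathway, in 7 lists, 91 had a row in the table and 77 passed the filter on low values. Limma called 15 of the 77 higher and 11 lower in mutant cells, beside 17.3% and 10.0% of all genes, whereas edgeR called 7 higher and 10 lower, beside 12.3% and 11.2%. With values rescaled by TMM factors limma called 10 higher and 12 lower. Their median log2 fold change was 0.05 by limma and -0.17 by edgeR, against 0.24 and 0.01 over all genes tested.

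**Figure D5:**
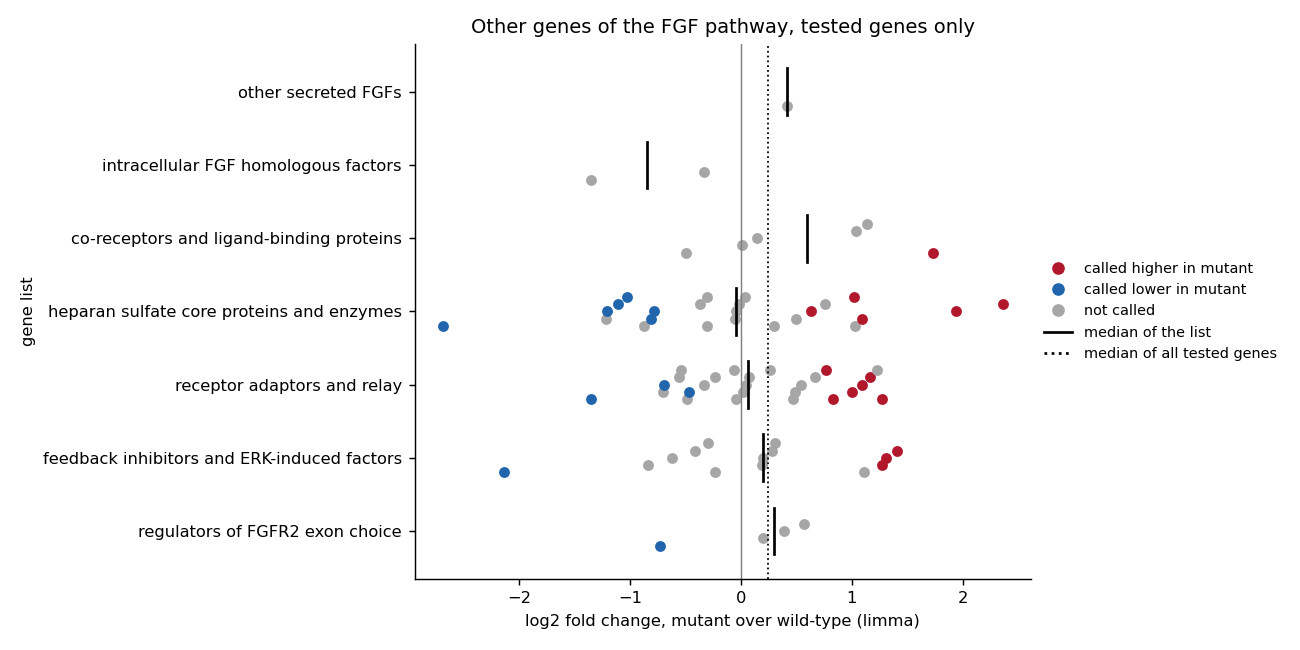
Log2 fold change by limma, mutant over wild-type, of the 77 tested pathway genes in 7 lists, with called genes in red (higher in mutant) and blue (lower in mutant), the list median as a black bar and the median of all genes tested (0.24) as a dotted line. Called genes of both directions stand in the heparan sulfate, adaptor and feedback lists.

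Of the other secreted FGFs, 8 of 12 had a row in the table, and 1 (FGF19) passed the filter. It had 951, 1042 and 957 normalized counts in the mutant replicates, against 1099, 558 and 654 in the wild-type replicates, and did not pass limma (log2 fold change 0.41, adjusted p = 0.245). The remaining 7 had at most 9.55 normalized counts in any sample. Of the 4 intracellular FGF homologous factors, which do not activate the receptors in the usual way, FGF13 had 161, 44.3 and 46.7 normalized counts in the mutant replicates, against 182, 180 and 175 in the wild-type replicates. It did not pass limma (log2 fold change -1.35, adjusted p = 0.0734), and mutant replicate 1 again lay beside the wild-type samples.

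Of 11 co-receptors and ligand-binding proteins 6 were tested, and beside 17.3% and 10.0% of all genes limma called 1 higher and none lower. This was FLRT3, a membrane protein that binds FGF receptors, with 93.6, 83.0 and 72.2 normalized counts in the mutant replicates, against 56.5, 18.1 and 13.3 in the wild-type replicates (log2 fold change 1.74 ± 0.54, limma, adjusted p = 0.0498), which edgeR did not call (adjusted p = 0.0727). FGFRL1, a receptor without a kinase domain, had 3452 ± 668 normalized counts in mutant and 3401 ± 312 in wild-type cells (adjusted p = 0.972 by limma), and FGFBP1, a carrier of secreted FGFs, 115 ± 26.0 and 160 ± 6.52 (adjusted p = 0.177). KLB, the co-receptor of FGF19, stayed under the filter with 12.0, 12.2 and 12.7 normalized counts in mutant and 6.14, 7.78 and 8.33 in wild-type replicates.

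Of 29 heparan sulfate core proteins and enzymes 24 were tested, with 5 called higher and 6 lower by limma and 2 higher and 5 lower by edgeR. Of all genes tested limma called 17.3% higher and 10.0% lower, and edgeR 12.3% and 11.2%. HS3ST1, a sulfotransferase, was lower with 371 ± 36.5 normalized counts in mutant and 861 ± 94.3 in wild-type cells (log2 fold change -1.21, limma, adjusted p = 0.0282). The core protein SDC4 (-0.78) and EXT1, which elongates the chain (-1.11), were also lower (adjusted p = 0.0404 each). NDST3, a sulfotransferase at a low level, was higher with 30.6 ± 2.01 in mutant and 7.77 ± 3.93 in wild-type cells (1.94, adjusted p = 0.0404). The list thus held calls in both directions, and its median was -0.05 by limma and -0.23 by edgeR.

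Of 26 receptor adaptors and relay genes limma called 6 higher and 3 lower, and edgeR 3 and 3. The shares over all genes tested were 17.3% and 10.0% by limma and 12.3% and 11.2% by edgeR. SHC1, an adaptor, was lower with 3305 ± 313 normalized counts in mutant and 5356 ± 297 in wild-type cells (log2 fold change -0.70, limma, adjusted p = 0.0404). The adaptors CRK (1.16, adjusted p = 0.0404) and GAB1 (1.27, adjusted p = 0.0409) and the RAS exchange factor SOS2 (1.09, adjusted p = 0.0413) were higher. The main adaptor FRS2 did not pass (0.54, adjusted p = 0.105), nor did the ERK gene MAPK3 (-0.49, adjusted p = 0.0922).

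Of 14 tested feedback inhibitors and ERK-induced factors limma called 3 higher and 1 lower, beside 17.3% and 10.0% of all genes tested. The 4 called genes are named here. The phosphatase DUSP5 was lower, with 19997, 11770 and 11547 normalized counts in the mutant replicates against 47199, 67692 and 72633 in the wild-type replicates (log2 fold change -2.14 ± 0.26, limma, adjusted p = 0.0147). DUSP4 was higher, with 12681, 12913 and 13202 in the mutant against 6547, 4045 and 4403 in the wild-type replicates (1.40 ± 0.20, adjusted p = 0.0197), and so were DUSP6 (1.31, adjusted p = 0.0472) and the ETS factor ETV1 (1.27, adjusted p = 0.0404). The phosphatases therefore moved in opposite directions, and edgeR did not call DUSP6 (adjusted p = 0.0751). None of the tested Sprouty and SPRED genes was called by limma or edgeR, with adjusted p by limma from 0.0646 (SPRED1) to 0.442 (SPRY4). DESeq2 called SPRY1 (-0.97, adjusted p = 0.0369) and SPRY2 (-0.54, adjusted p = 0.0381) lower, where it called 20.6% of all genes lower.

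Of 4 regulators of the exon choice of FGFR2 limma called 1 lower and none higher, beside 10.0% and 17.3% of all genes. ESRP1, which favours the epithelial form, had 3140, 2594 and 2533 normalized counts in the mutant replicates, against 5472, 4287 and 4047 in the wild-type replicates (log2 fold change -0.73 ± 0.18, limma, adjusted p = 0.0410), and edgeR also called it (adjusted p = 0.0341). The lines did not overlap in ESRP1, whereas FGFR2 itself overlapped. ESRP2, RBFOX2 and PTBP1 had log2 fold changes of 0.57, 0.39 and 0.20 and did not pass (adjusted p = 0.199, 0.118 and 0.198).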

How the data were processed

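RNA was measured in 3 mutant and 3 wild-type samples. The authors removed ribosomal RNA (the molecule label says polyA RNA), mapped paired reads to hg19 with TopHat2 2.1.0 and summarized them with HTSeq, with CASAVA 1.8.2 and DESeq listed too in the submitters' processing notes. The deposited signal values are size-factor normalized gene counts. In every sample 100% of values were whole multiples of 1 step within 0.001, taken as 1 read. Further columns (2, a log2 ratio and an adjusted p of the authors' own comparison, as deposited) were not used.

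Genes averaging 10 or more normalized counts were tested with limma 3.58.1 (trend, pseudocount 1, the low values being understated), and recovered reads with edgeR 4.0.16 and DESeq2 1.42.0 in R 4.3.3, all tested on simulated data. Symbols of 15673 genes matched GENCODE (hg19) directly, 1482 by an older symbol and 1081 not at all. Named are the members, up to 4 called genes of smallest p per list, ligand and co-receptor genes averaging 100 or more, and 3 like genes per member (1 for FGF8 is not reported here), while FRS2, MAPK3, KLB, SPRED1, SPRY1, SPRY2, SPRY4, ESRP2, RBFOX2 and PTBP1 were named after their values were seen. CDX2 and KRT18 were also named after their values were seen. The members and lists were chosen with earlier results of these data known. Alternatives were the method, TMM scaling, the filter (none or 50), the pseudocount (0.5 or 5), a replicate block and leaving out samples, and leaving out 1 sample under edgeR or DESeq2 was added after seeing the data.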

Additional observations from a re-analysis of the deposited data

How the results depend on the processing

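With 3 samples per line and both samples numbered 1 apart from their line, the number of calls rested on which samples entered, and FGF1 and FGF23 rest on 2 to 6 reads in several mutant samples. Changes of FGFR1 and FGFR3 lie within the shift that another scaling brings. The directions of FGF9, FGF18, FGF2, FGF8, FGF1, FGF23, FGFR2 and FGFR4 were kept in all alternatives run. FGF1 had no value with the filter at 50 and no adjusted p by DESeq2 without mutant replicate 2, wild-type replicate 2 or wild-type replicate 3.

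With a replicate block 0 members, 0 pathway genes and 0 genes of the table were called higher or lower (FGF9 adjusted p = 0.168 by limma). Deviations of same-numbered samples from the mean of their line correlated at -0.53, -0.43 and -0.31. These correlations cannot tell whether the numbers pair the samples, since both samples numbered 1 lay toward the other line. With replicate 1 of both lines left out 5 members were higher and 4 lower, 33 and 28 pathway genes, and 7713 and 4231 of all genes. Rescaling by TMM and a pseudocount of 5 each gave 4 members lower. With edgeR 7 pathway genes were higher, and with DESeq2 20 were lower, as were 2999 of all genes. The scaling moved the split of calls over all genes, from 2517 higher and 1459 lower to 2163 and 2110 with TMM factors.

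With 1 sample left out by limma, edgeR or DESeq2, 0 to 4 members were higher and 0 to 4 lower, 0 to 24 and 0 to 32 pathway genes, and 0 to 5181 and 0 to 4352 of all genes. FGFR1 turned sign with edgeR (-0.0318), DESeq2 (-0.0414) and TMM factors (-0.0247) and lay between -0.15 and 0.28 with 1 sample left out. FGFR3 turned sign with edgeR (-0.15), DESeq2 (-0.16) and TMM factors (-0.15) and lay between -0.23 and 0.12. The cause of these changes was not tested.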
